A study of Gallus gallus with 6 samples.

Results

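RHBDD1, RSPRY1, CLN8, PLK3, RASGEF1A and RBM41 are 6 seldom discussed genes among the 2253 named genes read on spotted cDNA arrays of chicken macrophages. They were chosen by their large ratios on the array of E. coli 1 h or the array of LPS 1 h, so their values on those arrays are a description and support nothing. The choice had no stated threshold. The macrophages were derived from peripheral blood and were left unstimulated, exposed to whole E. coli of the laboratory strain XL10, or exposed to lipopolysaccharide (LPS), the outer membrane glycolipid of Gram-negative bacteria, from S. typh. The stimulus lasted 1 h or 2 h, and cells sampled at 4 h and 8 h had it taken away after 2 h. On 5 arrays a pair of RNA samples was set against each other, in the channel order E. coli 1 h and unstimulated cells, unstimulated cells and LPS 1 h, E. coli 2 h and E. coli 4 h, E. coli 4 h and LPS 4 h, and E. coli 8 h and LPS 8 h. These are called here the 1 h E. coli array, the 1 h LPS array, the E. coli time array, the 4 h array and the 8 h array. The sixth array held LPS 2 h alone. The labels give no bird, strain, age, dose or pooling.

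The 6 genes have unrelated roles. RHBDD1 is a rhomboid protease of the endoplasmic reticulum (ER) that in mammals cuts membrane proteins marked for degradation. CLN8 is an ER membrane protein that in mammals helps newly made lysosomal enzymes leave for the Golgi, and its loss in humans causes a neuronal ceroid lipofuscinosis, a storage disease. RSPRY1 carries a RING finger and a SPRY domain, folds found in many ubiquitin ligases. PLK3 is a polo-like kinase, which in mammals responds early to growth factors and to stress. RASGEF1A is an exchange factor that loads GTPases of the Ras family with GTP. RBM41 has an RNA recognition motif and has been linked in human cells to the minor spliceosome. In macrophages LPS is sensed by a toll-like receptor complex, which turns on NF-kB and other factors and, through them, a fast wave of transcription.

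Each comparison had 1 array, so no test between conditions was possible, and each ± is the SD over spots of a gene on 1 array, which holds technical spread only. All ratios are log2 values minus the median of their array, with base 2 assumed. Signs are as deposited, since no source used here names the numerator. If channel 1 was the numerator, more transcript after the stimulus gives a positive ratio on the 1 h E. coli array but a negative ratio on the 1 h LPS array, and a positive ratio at 4 h or 8 h stands for more after E. coli than after LPS. The 1 h E. coli array lists its RNA in one order in the title and in the other by channel, so its direction is the least settled. Were an array turned round, all of its ratios below would change sign. In these bulk samples, fewer cells of a type and less RNA per cell cannot be told apart.

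The 5 ratio arrays held values for 13310 to 14361 of 14718 spots, and spots of the same clone had a median SD of 0.20 and 0.19 on the arrays of 1 h against 0.43 to 0.59 on the later ones. Of 18 macrophage markers 14 were read, at LPS 2 h intensities of 0.202 to 5.26 with none at or below 0. The T cell markers read, CD28 and CD3D, ranged from 0.489 to 5.40. The 3 heterophil markers read stood at 0.251 to 2.93. The 4 genes read for the erythroid list, ALAS1, HBA1, HBBA and RHAG, stood at 0.111 to 1.41. ALAS1 was not itself on that list and was matched through a synonym, so it is not counted here as an erythroid marker. Of the 9 genes listed for B cells only BTK was read, at 0.457, and this 1 gene cannot show whether B cells were present. None of the 8 thrombocyte and 6 stromal markers was among the named genes. Brightness depends on the clone, so these values cannot rank cell types. Ratios ran with brightness: on the 1 h E. coli array 37.5% of the dimmest 25% of genes were at least 2-fold positive, against 7.09% of the brightest 25%. Negative ratios on that array were also more frequent in the dimmest 25%, at 3.20% against 0.532% of the brightest 25%. On the 1 h LPS array negative ratios ran the other way, and 5.35% of the dimmest 25% and 15.6% of the brightest 25% were at least 2-fold negative. Positive ratios there were more frequent in the dimmest 25%, at 11.9% against 0.532% of the brightest 25%. All 6 genes lay in the brightest 25% of genes at LPS 2 h. Brightness was taken from that array alone, so it also holds the level of each transcript after LPS. Shares among the brightest 25% and removal of the trend with brightness therefore cannot separate brightness from a response to LPS.

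Of the 6 genes, 5 were at least 2-fold positive on the 1 h E. coli array, where 14.7% of all genes were, and 5 were at least 2-fold negative on the 1 h LPS array, against 7.37% of all genes. RASGEF1A was the exception on the former and RBM41 on the latter. These counts follow from the choice of the genes. The stated choice did not use the later arrays, but it was made with earlier results of these data known. On the 4 h array 5 of the 6 were at least 2-fold positive, where 17.7% of all genes were, and the sixth, RBM41, had spots of either sign. On the 8 h array 3 were positive (15.0% of all genes) and RASGEF1A was negative (12.9% of all genes). RBM41, among the 3, had a value on only 1 spot there. On the E. coli time array CLN8 alone was past 2-fold, on the negative side, as were 8.30% of all genes. Among the brightest 25% of genes, 7.62% were positive at 4 h, 6.57% were positive and 17.1% negative at 8 h, and 13.1% were negative on the E. coli time array. The median of the 6 was 1.82 at 4 h and 1.02 at 8 h, beside 0.0029 and 0.0064 for all genes, and -0.02 on the E. coli time array beside 0.04. The median at 8 h includes the single spot of RBM41.

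**Figure D1:**
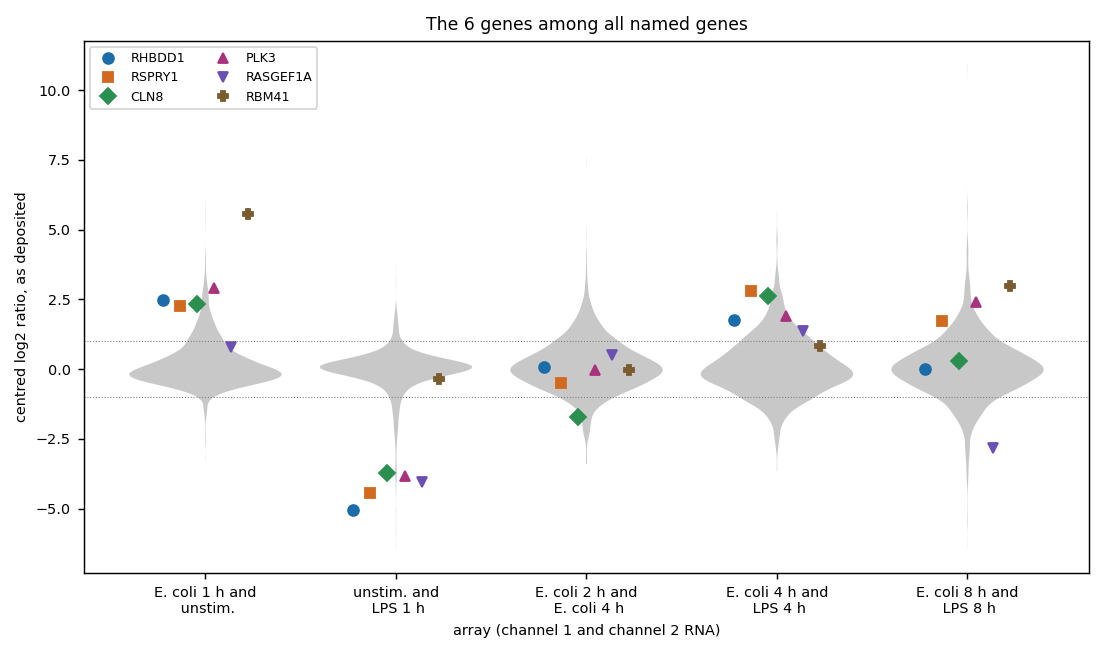
Centred log2 ratio (vertical axis) on the 5 ratio arrays (horizontal axis), with the distribution of all named genes in grey, the 6 genes as coloured symbols and dotted lines at 2-fold. On the 4 h array 5 of the 6 symbols lie above the upper dotted line, while on the E. coli time array 5 lie between the lines.

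RHBDD1, the ER protease, was represented by 1 clone. Its 3 spots had ratios of 2.16, 2.80 and 2.52 on the 1 h E. coli array, a mean of 2.49 ± 0.32. The 1 h LPS array gave them -5.66, -4.96 and -4.49, a mean of -5.04 ± 0.59 and a size of 32.8-fold, the sixth most negative of 2251 genes. The spots lay well clear of 0 on both arrays. On the E. coli time array they straddled 0, at -0.36, 0.56 and 0.02. On the 4 h array they were again all positive, at 1.05, 2.12 and 2.07, with a mean of 1.74 ± 0.60. At 8 h the mean was 0.01 ± 0.26, with spots from -0.23 to 0.29. RHBDD1 thus had a ratio past 2-fold between E. coli and LPS at 4 h and none past it at 8 h, a difference between arrays that was not tested. Its LPS 2 h intensity was 1.54 ± 0.12 over spots of 1.40 to 1.62.

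RSPRY1, the RING and SPRY protein, had the tightest spots of the 6 genes on the 1 h LPS array. They stood at -4.57, -4.38 and -4.33 there, a mean of -4.43 ± 0.12, next in rank after RHBDD1. Their values on the 1 h E. coli array were 1.98, 2.55 and 2.27, a mean of 2.27 ± 0.29. After centring, the 3 spots were on the same side of 0 on each of the 5 arrays. On the 4 h array RSPRY1 had 2.56, 2.86 and 2.97, and its mean of 2.79 ± 0.21 was the largest of the 6 genes and the 31st from the top of 2248. At 8 h the ratio was still positive, 1.73 ± 0.26 over spots of 1.49, 1.71 and 2.00. On the E. coli time array it was within 2-fold, at -0.48 ± 0.10. Without centring it was 0.01 there, so its sign on that array depends on the centring. Its LPS 2 h intensity was 8.68 ± 1.06 over spots of 7.46 to 9.36.

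CLN8, the ER carrier of lysosomal enzymes, was represented by 2 clones, named here A and B, that had the same sign on 4 of the 5 arrays but different sizes. On the 1 h E. coli array clone A had 1.04, 1.06 and 1.39 and clone B 3.30, 3.63 and 3.58. Clone A had on the 1 h LPS array -2.62, -2.57 and -2.36 and clone B -5.00, -5.16 and -4.67. The spots of the clones did not overlap on any of the 5 arrays, and clone B was 2.34 above clone A on the 1 h E. coli array and -2.43 from it on the 1 h LPS array. On the 4 h array they had means of 1.86 ± 0.33 and 3.39 ± 0.26, and on the E. coli time array of -2.27 ± 0.17 and -1.15 ± 0.14. E. coli 4 h was in channel 2 of the latter array and channel 1 of the former, so the opposite signs share 1 condition. At 8 h they parted in sign, with 0.94 ± 0.35 for clone A and -0.34 ± 0.46 for clone B. Averaged over the clones, CLN8 had 2.33 ± 1.29, -3.73 ± 1.34, -1.71 ± 0.63, 2.62 ± 0.88 and 0.30 ± 0.79 on the 1 h E. coli, 1 h LPS, E. coli time, 4 h and 8 h arrays, each over 6 spots. These SDs are mostly the gap between clones. Whether both clones belong to CLN8, and which of them stands for the full transcript, was not tested. For that reason both the assignment of these ratios to CLN8 and their size are uncertain. The LPS 2 h intensities were 3.0 ± 0.43 for clone A and 11.9 ± 2.92 for clone B.

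PLK3, the polo-like kinase, had 2.79, 2.47 and 3.45 on the 1 h E. coli array, a mean of 2.91 ± 0.50. The corresponding values on the 1 h LPS array were -3.94, -3.99 and -3.56, a mean of -3.83 ± 0.24. Its ratio on the E. coli time array was -0.02 ± 0.12, with spots of -0.13, -0.01 and 0.10. At 4 h and 8 h, between E. coli and LPS, all spots were positive. They had 1.58, 1.81 and 2.30 at 4 h, a mean of 1.90 ± 0.36, and 1.78, 2.36 and 3.11 at 8 h, a mean of 2.42 ± 0.67 and a size of 5.34-fold. The spots of the 2 times overlapped. The LPS 2 h intensity was 1.61 ± 0.22 over spots of 1.38 to 1.82.

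RASGEF1A, the Ras exchange factor, was within 2-fold on the 1 h E. coli array and far past it on the 1 h LPS array. It had 2 clones. On the 1 h E. coli array all 6 spots lay between 0.67 and 0.89, with a mean of 0.80 ± 0.08, which passed 2-fold at 1.09 after removal of the trend with brightness. On the 1 h LPS array they lay between -4.79 and -3.49, with a mean of -4.04 ± 0.44 and clone means of -3.88 and -4.19. The clones thus gave overlapping ratios on these arrays. Its mean on the E. coli time array was 0.50 ± 0.28. RASGEF1A was the only one of the 6 genes past 2-fold with opposite signs at 4 h and 8 h. At 4 h it had 1.37 ± 0.99, with 1.52, 2.39 and 1.96 for clone A and 1.85, -0.34 and 0.83 for clone B, so 1 spot of 6 was negative and the mean of clone B, 0.78, was within 2-fold. The gene's mean was also within it, at 0.95, when the arrays were scaled to one spread. At 8 h it had -2.81 ± 0.81, with spots from -4.08 to -1.93, all negative and none overlapping those of 4 h. The spots of the clones did not overlap each other at 8 h, with means of -2.23 for clone A and -3.40 for clone B. The LPS 2 h intensity was 3.84 ± 0.77 over spots of 2.75 to 4.90.

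RBM41, the RNA-binding protein, had the second largest mean ratio of all 2251 genes on the 1 h E. coli array and little sign of one on the 1 h LPS array. On the former its spots had 6.77, 5.86 and 4.10, a mean of 5.58 ± 1.36 and a size of 47.7-fold. On the latter only 2 of the 3 spots had a value, 0.27 and -1.0, on either side of 0. On the E. coli time array its spots had 0.42, 0.17 and -0.68. At 4 h it had 2 spots, -0.17 and 1.81, whose mean of 0.82 became 1.49 after removal of the trend, and at 8 h a single spot of 2.97, which counts as past 2-fold but has no spread. The 3 spots were also uneven in brightness at LPS 2 h, at 0.055, 3.86 and 1.56, and the spot with the largest ratio on the 1 h E. coli array was the dimmest. RBM41 had the fewest spots with a value of the 6 genes. The part of uneven spotting in its ratio was not tested.

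**Figure D2:**
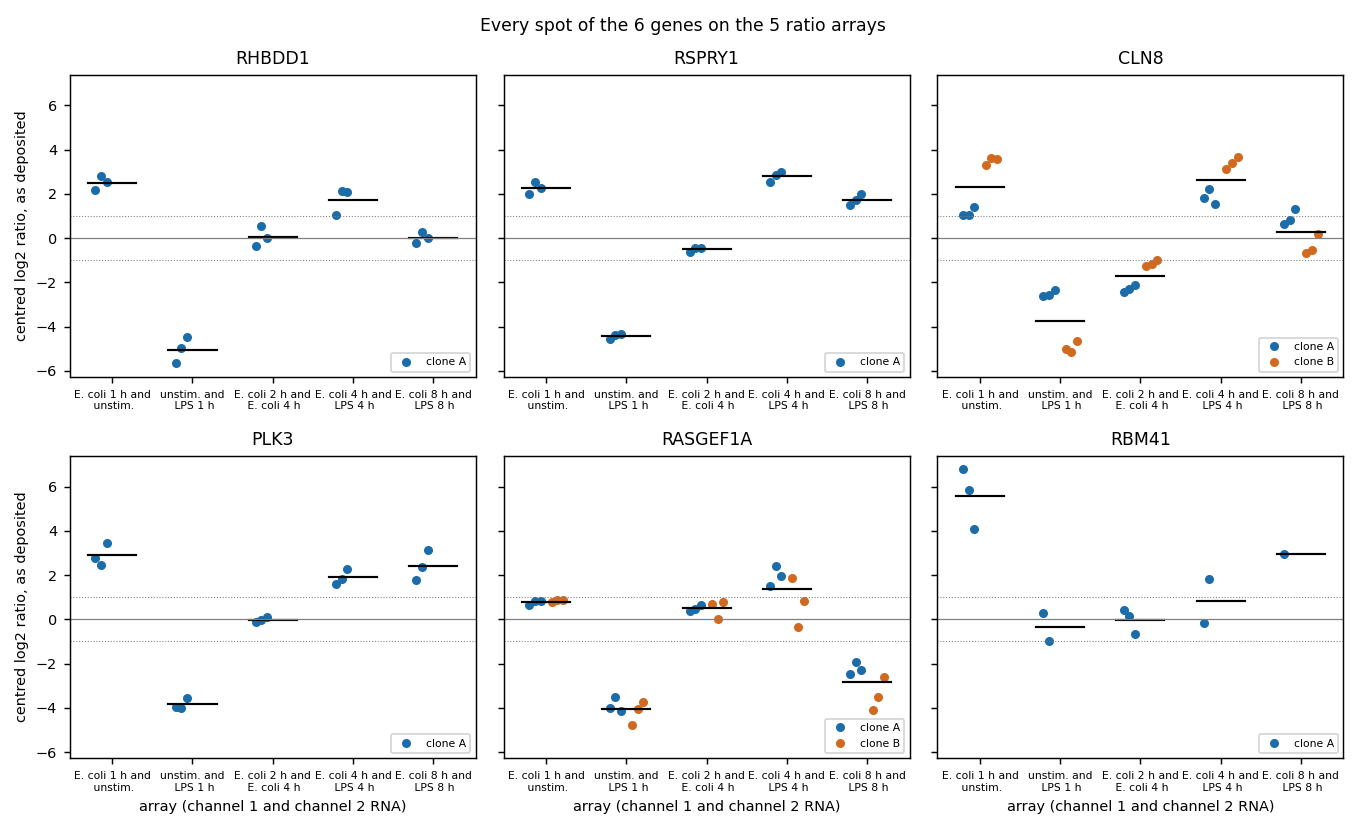
Centred log2 ratio of every spot (vertical axis) of the 6 genes on the 5 ratio arrays (horizontal axis), coloured by clone, with the gene mean as a black bar and dotted lines at 2-fold. The clones of CLN8 are apart on every array, and those of RASGEF1A overlap on the arrays of 1 h but not on the 8 h array. The spots of RBM41 are few and wide apart on the later arrays.

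For 5 of the 6 genes the ratio was larger in size on the 1 h LPS array than on the 1 h E. coli array, RBM41 being the exception. Over all genes this held for 932 of 2249, or 41.4%. Since the genes were picked on these arrays, and neither array set the stimuli against each other, this is no measure of a difference between the stimuli. The arrays also differed in spread. Over all spots the median distance from 0 after centring was 0.45 on the 1 h E. coli array and 0.32 on the 1 h LPS array. RHBDD1, RSPRY1, CLN8 and PLK3 were among the 63 of 2249 genes that were at least 2-fold positive on the 1 h E. coli array and at least 2-fold negative on the 1 h LPS array. Of the other genes of that kind 58 had a value at 4 h, and 39 of these, 67.2%, were at least 2-fold positive there, with a median of 1.36. Within the brightest 25% of genes it was 16 of 26, where 7.62% of all genes so bright were positive. The 4 h array held no condition of the arrays of 1 h, but the labels do not say whether the cells came from the same birds. Positive ratios at 4 h such as those of RHBDD1, RSPRY1, CLN8 and PLK3 were thus also seen in most other genes with these signs at 1 h. At 8 h these other genes included 11 of 56 on the positive side of 2-fold and 6 on the negative side, 19.6% and 10.7%, beside 15.0% and 12.9% of all genes. On the E. coli time array 11 of 59 were positive and 13 negative, 18.6% and 22.0%, beside 14.8% and 8.30% of all genes.

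Among the 6 genes, RSPRY1 and PLK3 were the most alike, with a root mean square difference of 0.67 in log2 ratio over the 5 arrays. RASGEF1A and RBM41 were the least alike, at 3.75. All distances of RBM41 rest, for the 8 h array, on its single spot there. The same measure was taken over the 2212 genes read on all 5 arrays, for which the median difference from one of the 6 genes was 2.42 to 2.92. It includes the arrays of 1 h, on which the 6 genes were chosen for large ratios. A large median difference, and nearness to other genes with large ratios there, thus follow in part from the choice. Nearest to RHBDD1 were NFKBIZ, a nuclear regulator of NF-kB, at 0.60, ACOD1, the enzyme that makes itaconate, at 0.66, and PTGS2, the inducible cyclooxygenase, at 0.83. Nearest to RSPRY1 were G0S2, an inhibitor of triglyceride breakdown, at 0.50, then PLK3, and then the cytokine IL1B at 0.79. PLK3 had RSPRY1 and G0S2 as its nearest genes, the latter at 0.72, followed by N4BP2L2 at 1.05.

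CLN8 was nearest to SLC16A1, a lactate carrier, at 0.65, to LSM5, a subunit of a ring that binds RNA, at 0.73, and to NFKBIZ at 0.79. The CLN8 ratios used for this were means of clones A and B, whose spots did not overlap on any array. These distances thus describe neither clone, and distances of each clone alone were not computed. SLC16A1 shared with CLN8 a negative ratio on the E. coli time array, at -1.48, and a positive one at 4 h, at 2.54. The measure that picked SLC16A1 included these arrays, so the shared signs follow in part from how it was picked. RASGEF1A had no gene as close. Its nearest were TLR15, a toll-like receptor of birds and reptiles, at 0.87, CH25H, the cholesterol 25-hydroxylase, at 0.90, and CD83, a surface marker of activation, at 0.99. All of these had a negative ratio at 8 h, of -1.12, -1.78 and -1.41, smaller in size than that of RASGEF1A. They were picked by a measure that included the 8 h array, so their shared sign there follows in part from that. RBM41 lay farthest from its neighbours, GMFB at 1.06, POGZ at 1.23 and COQ10B at 1.28. These were in the dimmest 25% of genes, with LPS 2 h intensities of 0.20, 0.0792 and 0.110, whereas RBM41 had 1.83 ± 1.92. The arrays of 1 h weigh heavily in this measure, because the 6 genes had their largest ratios there. Over the 3 later arrays alone, 1 of the 3 nearest genes was the same for RSPRY1 (G0S2) and for CLN8 (SLC16A1), and none for the other 4 genes.

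**Figure D3:**
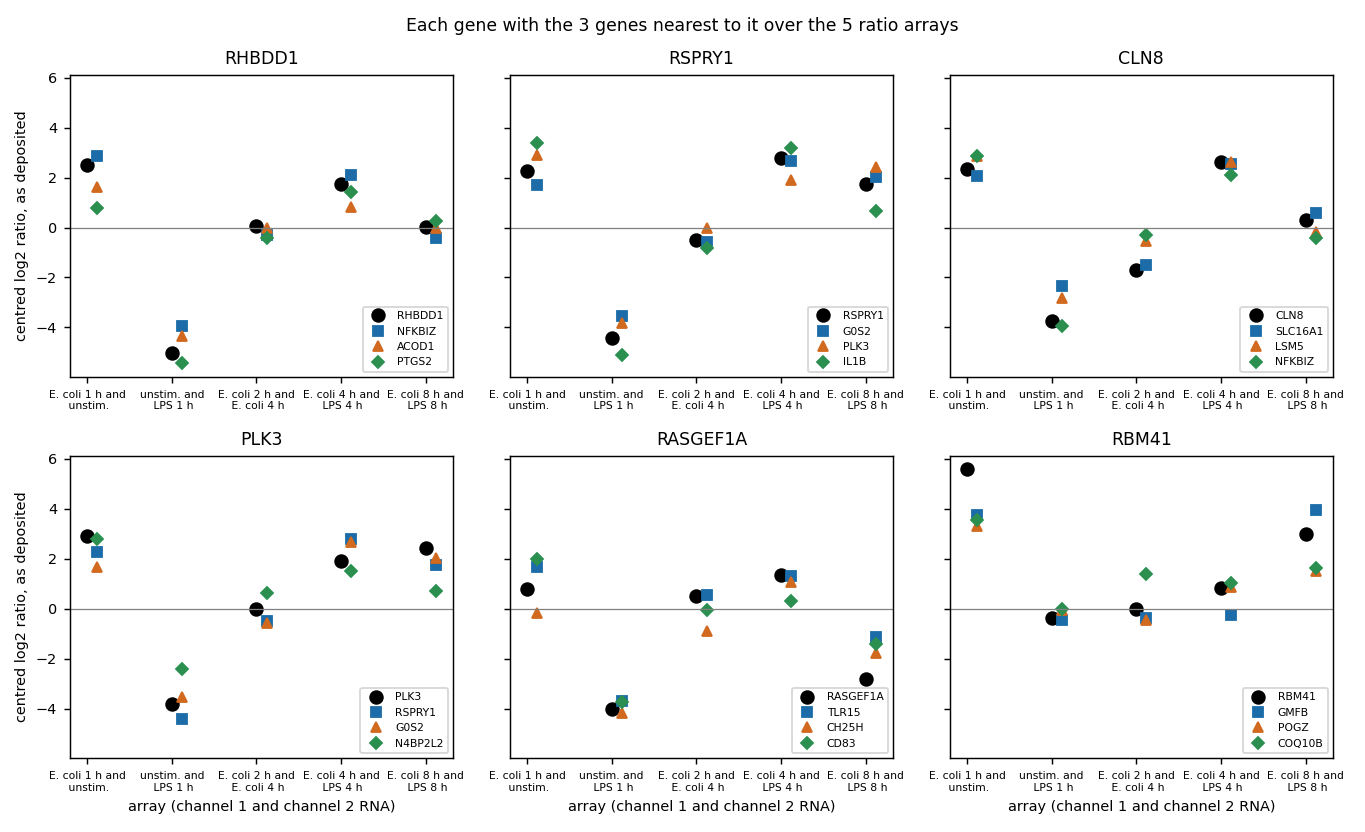
Centred log2 ratio (vertical axis) of each of the 6 genes (black) and of the 3 genes with the smallest root mean square difference from it (coloured) on the 5 ratio arrays (horizontal axis). NFKBIZ is at a difference of 0.60 from RHBDD1 over the 5 arrays, while the neighbours of RBM41 are 1.06 or more away. Over the 3 later arrays alone NFKBIZ ranked 26 among the genes nearest to RHBDD1.

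The lists of relatives and pathway partners held 46 other genes, and their shares past 2-fold at 1 h were near those of all genes. On the 1 h E. coli array 7 were at least 2-fold positive, 15.2% beside 14.7% of all genes. On the 1 h LPS array 2 were positive and 3 negative, 4.35% and 6.52%, beside 3.78% and 7.37%. At 4 h 7 were positive and 10 negative, 15.2% and 21.7%, beside 17.7% and 11.7%. The counts of the single lists are small, and none was tested against the rest.

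The list of RHBDD1 held rhomboid and ER degradation genes and other intramembrane proteases. Of 8 others read, 1 was at least 2-fold positive on the 1 h E. coli array, beside 14.7% of all genes. None was past 2-fold on the 1 h LPS array, where 11.2% of all genes were. The medians of the 8 were -0.09 and 0.0078. The positive one was SPPL2A, an intramembrane protease of another family, at 1.15 ± 0.18, and PARL, the mitochondrial rhomboid, had -0.26 and 0.35 on the E. coli 1 h and 1 h LPS arrays. Of 9 others in the list of CLN8, ceroid lipofuscinosis genes and carriers of lysosomal enzymes, none was past 2-fold on either array of 1 h. Of all genes 16.3% were on the 1 h E. coli array and 11.2% on the 1 h LPS array. The medians of the 9 were -0.23 and 0.19. The lysosomal protease CTSD, itself a gene of this disease group, had -0.45 on the 1 h E. coli array and 0.19 on the 1 h LPS array. Past 2-fold at 4 h were 2 of the 9 on the positive side and 3 on the negative side, and at 8 h none and 3. The shares of all genes were 17.7% and 11.7% at 4 h and 15.0% and 12.9% at 8 h. CTSD was among the negative genes at both times, with -2.13 ± 0.51 and -1.73 ± 0.28. The positive genes at 4 h were GNPTG, a subunit of the enzyme that tags lysosomal enzymes, at 1.17, and TRAM1L1 at 1.65, both with an SD over spots larger than the mean.

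Of 9 others in the list of PLK3, stress checkpoint genes, 3 were at least 2-fold positive on the 1 h E. coli array, beside 14.7% of all genes. On the 1 h LPS array 2 were at least 2-fold negative, beside 7.37% of all genes. The medians of the 9 were 0.67 and -0.24. CDKN1A, the cell cycle inhibitor p21, had 1.87 ± 0.24 and -1.27 ± 0.19, and BTG2, an antiproliferative factor, 1.19 ± 1.61 and -2.05 ± 0.21. JUN, a subunit of AP-1, was the remaining positive gene at 1.03 ± 0.80, and had 0.50 ± 1.21 on the 1 h LPS array. Of these, the positive values of BTG2 and JUN had SDs near or above the mean. No other polo-like kinase was among the named genes.

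Of 8 other Ras and Rap genes, 1 was positive on the 1 h E. coli array, beside 14.7% of all genes. It was RRAS, at 1.59 ± 0.11 on 2 spots of a dim clone. None was past 2-fold on the 1 h LPS array, where 11.2% of all genes were and the median of the 8 was -0.36. Of 10 other RNA-binding RBM and minor spliceosome genes, 2 were positive on the 1 h E. coli array, beside 14.7% of all genes. Both were on dim clones: RBM14 at 3.01 ± 1.98 and SNRNP48, a minor spliceosome subunit, at 1.84 ± 1.07. On the 1 h LPS array 2 were positive, where 3.78% of all genes were, namely RBM14 at 1.37 ± 2.70 and SNRNP48 at 1.80 ± 3.39. RBM24 was negative there at -1.18 ± 0.12, as were 7.37% of all genes. For RSPRY1 only 2 other SPRY genes were read, HNRNPU at 0.70 and -0.22 and HERC1 at -0.37 and 0.18 on the E. coli 1 h and 1 h LPS arrays.

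**Figure D4:**
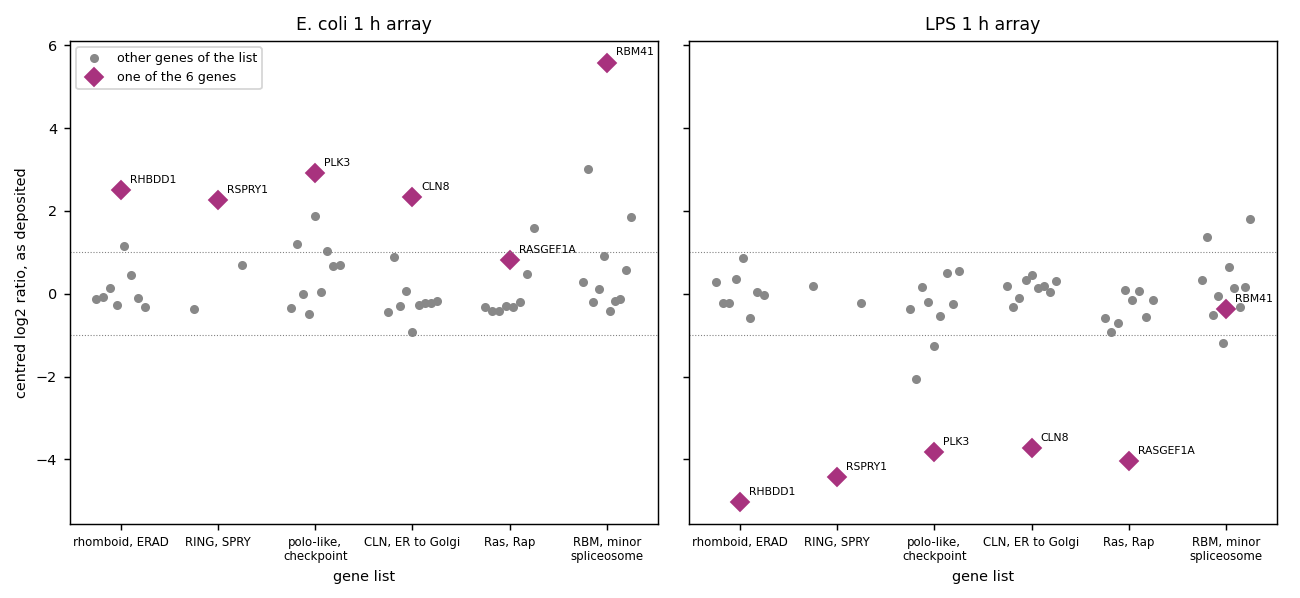
Centred log2 ratio (vertical axis) on the 1 h E. coli array (left) and the 1 h LPS array (right) for the 6 genes (diamonds) and the other genes of their lists (grey points), with dotted lines at 2-fold. The 6 genes were picked on these arrays, so their place in the plot follows from the choice, while of the 46 other genes 7 lie above the upper line on the left and 3 below the lower line on the right.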

How the data were processed

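Gene expression was measured on 6 arrays, and groups were taken from the labels. The 5 arrays with 2 channels held values that the authors deposited without a unit, read here as log2 ratios. For LPS 2 h the deposited column was read as linear intensity, with 204 spots below 0. No source used here gives the numerator, logarithm base, dyes, normalization or filters. Array medians as deposited ran from -0.11 to 0.49, so scale, centring and direction remain unknown.

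A probe table with an annotation of 2007 gave 1 gene for 9066 spots and several for 3, which were left unnamed, and 5649 spots were not listed. Symbols were updated by identifier through a RefSeq table of GRCg7b (2228 of 2255 matched), used for names only. Ratios were centred on each array's median, and spots were averaged within a clone (3 spots each) and clones within a gene. The brightness trend was a running median over 501 spots ordered by LPS 2 h intensity. A gene was past 2-fold at a log2 ratio of at least 1 in size. Likeness was the root mean square difference over 5 arrays. TRAM1L1 was matched through a synonym of TRAM1. ALAS1 was matched in the same way to a symbol on the erythroid list. The promoter search that had been planned was not run, as no sequence was used here.

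The genes, lists and settings were chosen with earlier results of these data known. Text names the 6 genes, the 3 nearest genes of each, and from each list the genes past 2-fold at 1 h with spots of 1 sign, up to 4. PARL, CTSD, GNPTG and TRAM1L1 at 4 h, JUN, HNRNPU, HERC1, and RBM14 and SNRNP48 on the 1 h LPS array, were added after their values were seen. Centring, averaging and the 2-fold line were tested on simulated arrays that held no trend with brightness. The other steps were not tested in this way. Software was Python 3.11.15, pandas 2.3.3, numpy 2.4.6 and matplotlib 3.10.9.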

Additional observations from a re-analysis of the deposited data

Results flagged for a closer look

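RASGEF1A differed between the times at which E. coli and LPS were compared. Its ratio was 1.37 ± 0.99 at 4 h and -2.81 ± 0.81 at 8 h, each over 6 spots, a gap of 4.18 on the log2 scale. It was singled out because it was past 2-fold with opposite signs on these arrays. The difference was not tested, since each time had 1 array, and it would not be one of sign if only 1 of the arrays were turned round. Of the 2 clones, clone A had 1.95 and -2.23 and clone B 0.78 and -3.40. The spots of the clones overlapped at 4 h but not at 8 h.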

How the results depend on the processing

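The ratios of the 6 genes were recomputed without centring, after removal of the brightness trend, with the median over spots, with the arrays scaled to one spread and, for CLN8 and RASGEF1A, from each clone alone, 140 values in all. None of the ratios past 2-fold changed sign. Of the 90 values from the settings without centring, without the trend or with scaling, 64 stayed within 1 SD over spots of the reported one (for RBM41 at 8 h, the median spot SD of the array) and 26 moved farther. The 30 medians and 20 values of single clones cannot move by more than this SD and say nothing about stability by that measure, and the medians lay at most 0.32 from the means. In 5 cases the 2-fold line was crossed. RASGEF1A on the 1 h E. coli array went from 0.80 to 1.09 without the trend and to 1.06 after scaling, and on the 4 h array from 1.37 to 0.95 after scaling and to 0.78 from clone B. RBM41 on the 4 h array went from 0.82 to 1.49 without the trend. Among all genes, those past 2-fold went from 366 to 188 on the 1 h E. coli array without the dimmest 25% of spots, from 251 to 549 on the 1 h LPS array after scaling and from 661 to 314 on the 4 h array after scaling. Without centring, the split of positive and negative genes went from 85 and 166 to 161 and 123 on the 1 h LPS array and from 333 and 187 to 646 and 70 on the E. coli time array. After removal of the trend it went from 332 and 34 to 221 and 92 on the 1 h E. coli array. The number of arrays limits the precision.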
